A study of Rattus norvegicus with 4 samples.

Results

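Axon guidance ligands and receptors were examined in CA3 of the hippocampus of Sprague-Dawley rats, on 4 expression arrays. The genes were chosen by symbol alone, as semaphorins of classes 3 to 7, plexins, neuropilins, ephrins, Eph receptors, Slits, Robos, netrins, Unc5 receptors and Dcc. The rule found 57 of the 14217 named genes, covered by 96 of 31099 probe sets. It used no measured value, but the members were chosen with earlier results of these data known. The rule also took in Unc5cl, whose product resembles the netrin receptors in its intracellular part. The brightest probe set stood for each gene. 34 genes had a mean intensity over the 4 arrays above 62.75, the median over all probe sets that are not controls. The other 23 are called dim and are described apart.

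The rats were injected into the hippocampus with PBS (the vehicle), with kainic acid (KA, a glutamate receptor agonist that overexcites neurons), with KA and the neuroprotective peptide NAP, or with NAP alone, and CA3 was taken 24 h later. Each of these 4 groups had 1 array, and whether its RNA came from a single animal or from several is not stated in the labels. Age and sex are not given in the labels used here. Nothing was replicated. No test, p-value or standard error is given below, and no difference can be set against the spread between animals.

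Growing axons are steered by secreted and membrane-bound cues that act through receptors on the growth cone. Semaphorins signal through plexins, with neuropilins as co-receptors for most of class 3. Ephrins signal through Eph receptor tyrosine kinases and also back into the cell that carries them, Slits act through Robo receptors, and netrins act through Dcc and the Unc5 receptors. In the adult hippocampus many of these genes stay active, and they are known for roles in the mossy fibre projection to CA3, dendritic spines, blood vessels and the response to injury.

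Values are MAS5 intensities on a linear scale, and differences are in log2(intensity + 10), which understates the change of weak signals. A difference of 1 on that scale is 2-fold, and 2-fold or 1.5-fold are rules of size. Differences were taken between 4 pairs of arrays. KA minus PBS and KA+NAP minus NAP describe the toxin without and with the peptide and share no array. NAP minus PBS and KA+NAP minus KA describe the peptide without and with the toxin, and each shares an array with each of the first pair.

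The intensity trimmed by 2% at each end averaged 250.1 on every array, so the arrays had been scaled to a common level. All 6 CA3 pyramidal cell markers passed the filter, and their summed intensity was 4265 with PBS, 2621 with KA, 2240 with KA+NAP and 4113 with NAP. The 4 CA1 pyramidal cell markers passed it too, at summed intensities of 2337, 552, 1964 and 1250 in the same order, so the tissue carried CA1 transcripts in amounts that differed between the arrays without KA as well. The dentate granule cell gene Prox1 read 932 with PBS, 753 with KA, 747 with KA+NAP and 1194 with NAP, also lower on both KA arrays. All 6 CA3 markers lay below 0 in KA minus PBS and in KA+NAP minus NAP. Summed over 6 genes, pan-neuronal markers were 22611 with PBS, 17005 with KA, 17036 with KA+NAP and 22077 with NAP. Astrocyte markers, over 5 genes, were 19101, 15484, 15783 and 18591 in the same order, with 4 below 0 and 1 above in each KA difference. Oligodendrocyte precursor markers, over 4 genes, were 1029, 764, 903 and 1236, but 2 of the 3 past the filter lay above 0 in KA+NAP minus NAP. Oligodendrocyte markers, over 4 genes, were 19719, 17755, 19971 and 19914. In such bulk tissue, fewer cells of a type and less RNA per cell cannot be told apart.

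Most guidance genes past the filter were lower on the arrays with KA. In KA minus PBS their median difference was −0.32, against 0.02 over all 9489 genes past the filter, and 23 of 34 lay below 0, against 47.2% of all genes. In KA+NAP minus NAP the median was −0.45, against 0.03, and 25 of 34 lay below 0, against 47.3%. 19 of the 34 genes had both KA arrays below both arrays without KA, an order that 28.7% of all genes showed. The reverse order, both KA arrays above the others, was seen for 5 members (Sema3c, Sema4a, Sema6a, Plxnb2 and Unc5b) and for 32.3% of all genes.

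Differences of at least 1.5-fold were mostly downward. In KA minus PBS 10 of 34 were that much lower, against 9.56% of all genes, and 2 higher, against 12.4%. In KA+NAP minus NAP 14 were lower, against 9.38%, and 4 higher, against 13.8%. At 2-fold, 4 of 34 were lower in KA minus PBS (Efnb3, Plxnb1, Ephb3 and Plxnc1), against 2.39% of all genes, and 2 were higher (Efna5 and Sema6a), against 4.91%. Efna5 passed the filter through its KA value, so its place among the higher genes is not independent of the filter. In KA+NAP minus NAP 3 were lower at that size (Efnb3, Epha7 and Slit2), against 2.41%, and 1 was higher (Sema3g), against 5.66%. Efnb3 alone was at least 2-fold lower in both KA differences, as were 0.885% of all genes, and no member was at least 2-fold higher in both, against 3.13%. By the brightest probe set, 7 members were at least 1.5-fold lower in both, namely Efnb3, Epha4, Epha5, Plxna4, Plxnb1, Plxnc1 and Unc5c. That pattern was shown by 4.15% of all genes. At least 1 further probe set past the filter fell short of it for Epha4, Plxna4 and Plxnc1, and none for Plxnb1. No member was at least 1.5-fold higher in both, against 7.64% of all genes.

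**Figure D1:**
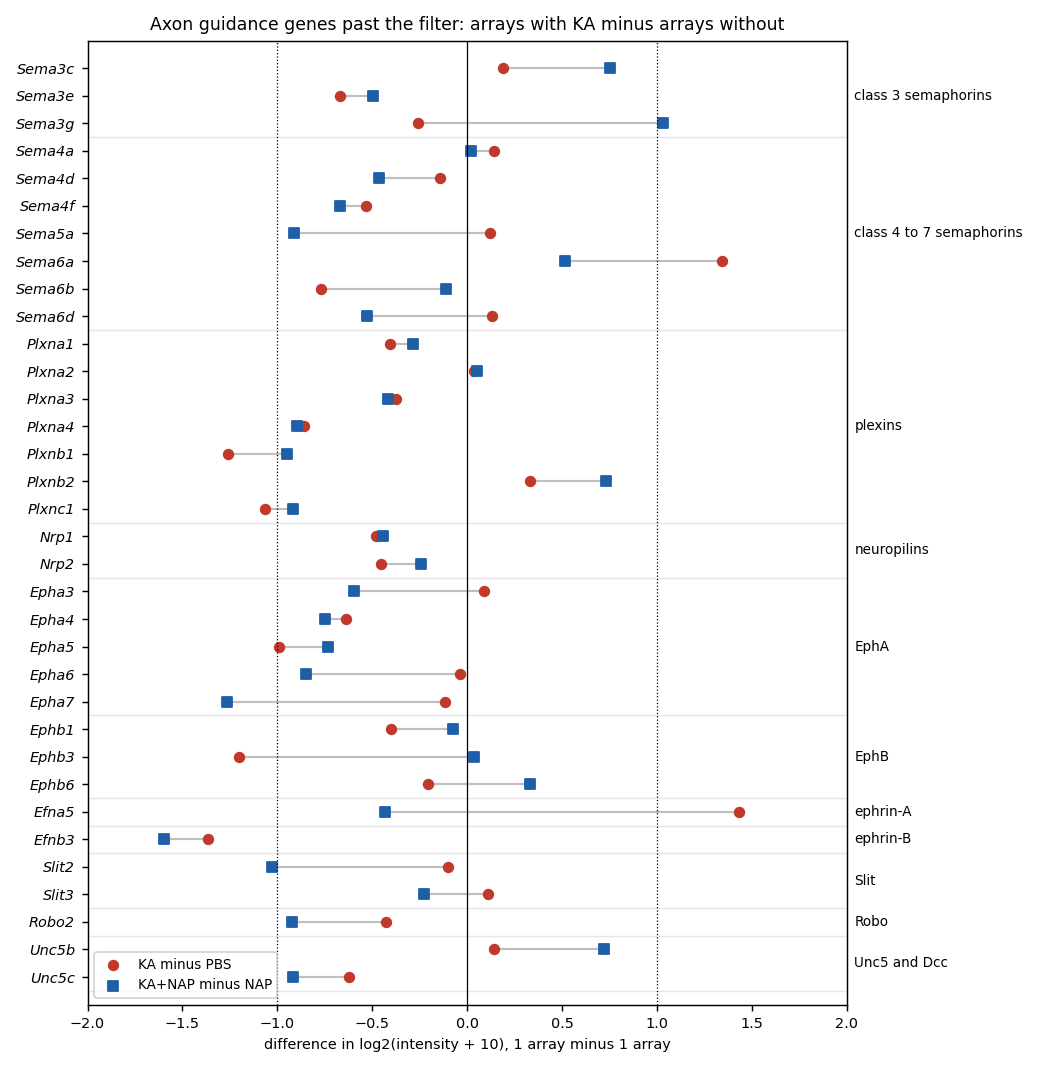
KA minus PBS (red circles) and KA+NAP minus NAP (blue squares) for the 34 guidance genes past the filter, grouped by family, in log2(intensity + 10). Each point is 1 array minus 1 array, and dotted lines mark 2-fold. Most points lie left of 0, Efnb3 lies past the left 2-fold line with both symbols, and Efna5 and Sema6a lie past the right line with the circle only.

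Ligands and receptors differed in how they were spread. The 20 receptors past the filter had a median of −0.42 in KA minus PBS and −0.52 in KA+NAP minus NAP, and 13 of them had both KA arrays below both others. The 14 ligands had medians of 0.00 and −0.45, and 6 of them showed that order. Over all genes past the filter, 28.7% showed it. Of the 7 genes at least 1.5-fold lower in both KA differences, Efnb3 was the only ligand. The difference between ligands and receptors was not tested.

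Among the secreted class 3 semaphorins, 3 of 7 passed the filter, and each had its own order of arrays. Sema3e, whose product binds plexin-D1 directly, read 2515 with PBS, 1575 with KA, 1651 with KA+NAP and 2329 with NAP. Its differences were −0.67 in KA minus PBS and −0.49 in KA+NAP minus NAP, both KA arrays lay below the others, and the peptide differences were 0.07 and −0.11. Sema3c ran the other way. It read 1229 with PBS, 1401 with KA, 1823 with KA+NAP and 1077 with NAP. Its differences of 0.19 and 0.75 stayed under 2-fold.

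Sema3g, a neuropilin-binding semaphorin known from arteries, read 159 with PBS, 131 with KA, 335 with KA+NAP and 159 with NAP. The KA+NAP array stood alone above the other 3, which lay close together. The difference was 1.29 in KA+NAP minus KA and 1.03 in KA+NAP minus NAP, against −0.26 in KA minus PBS and 0.00 in NAP minus PBS. In KA+NAP minus KA it was the only member at least 2-fold higher, as were 1.52% of all genes. A second, dim probe set of Sema3g read between 19 and 24 on the 4 arrays. Summed endothelial markers were 1348 with PBS, 1513 with KA, 2203 with KA+NAP and 1858 with NAP. Of 6 measured genes 5 passed the filter, and Pecam1, below it, read 36, 47, 83 and 34. Kdr read 78, 256, 462 and 122 in that order. In KA+NAP minus NAP 3 of the 5 lay above 0 and 2 below, Cldn5 at −0.26 and Flt1 at −0.19. The part of these markers in the Sema3g value was not tested.

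Of the membrane-bound semaphorins of classes 4 to 7, 7 of 10 passed the filter, with medians of 0.12 in KA minus PBS and −0.46 in KA+NAP minus NAP. Sema6a, a ligand of plexin-A2 and plexin-A4, read 148 with PBS, 391 with KA, 351 with KA+NAP and 243 with NAP. Both KA arrays lay above the others, at differences of 1.34 in KA minus PBS and 0.51 in KA+NAP minus NAP, but NAP alone was also above PBS by 0.68. Set against the NAP array in place of PBS, the KA value of Sema6a was 0.66. Its second probe set past the filter read 52, 105, 119 and 108 in the order PBS, KA, KA+NAP and NAP, so there the PBS array was low and the other 3 were alike.

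Sema5a, which carries thrombospondin repeats, read 552 with PBS, 600 with KA, 353 with KA+NAP and 672 with NAP. Only the KA+NAP array was low, at −0.91 from NAP and −0.75 from KA. The second Sema5a probe set past the filter pointed the same way at −0.29 and −0.42. Sema6d, a ligand of plexin-A1, read 800, 876 and 836 with PBS, KA and KA+NAP and 1208 with NAP, which left the NAP array high and put NAP minus PBS at 0.59. Sema4f was at 285 and 296 without KA and at 194 and 182 with KA and KA+NAP. Sema6b ranged from 189 with KA to 329 with PBS, Sema4d from 106 to 150, and Sema4a from 237 to 264.

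**Figure D2:**
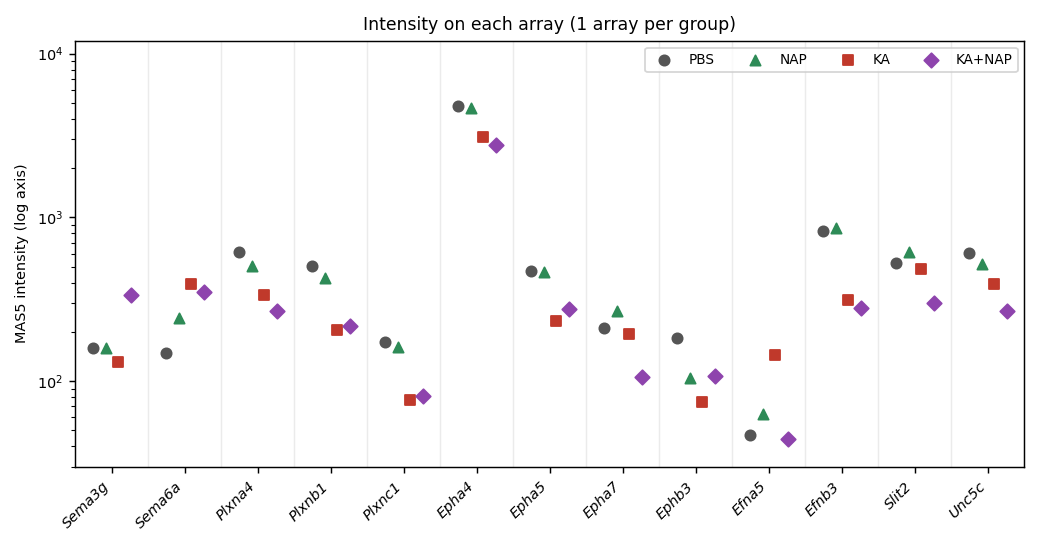
MAS5 intensity (log axis) on each of the 4 arrays for the 13 guidance genes at least 2-fold apart in any of the 4 differences or at least 1.5-fold lower in both KA minus PBS and KA+NAP minus NAP, with 1 symbol per array. Squares (KA) and diamonds (KA+NAP) lie below circles (PBS) and triangles (NAP) for Plxna4, Plxnb1, Plxnc1, Epha4, Epha5, Efnb3 and Unc5c, while Sema3g is high on the KA+NAP array alone and Efna5 on the KA array alone.

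Plexins, the semaphorin receptors, held 3 of the 7 genes at least 1.5-fold lower in both KA differences by the brightest probe set. 7 of 8 passed the filter, with medians of −0.41 in KA minus PBS and −0.42 in KA+NAP minus NAP. In each, 5 of 7 lay below 0, against 47.2% and 47.3% of all genes. Plxnb1, the receptor of Sema4d, read 502 with PBS, 204 with KA, 217 with KA+NAP and 429 with NAP. The KA arrays were close to each other and lay far below the others, at differences of −1.26 and −0.95. Its second probe set past the filter gave −1.04 and −1.09. Plxnc1, the receptor of Sema7a, read 172 with PBS, 77 with KA, 81 with KA+NAP and 162 with NAP, at −1.06 and −0.92. The second Plxnc1 probe set gave −0.73 and −0.32, and it was highest on the NAP array at 140.

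Plxna4, which takes class 3 semaphorins with neuropilins and class 6 semaphorins alone, gave readings that depended on the probe set. The brightest read 616 with PBS, 335 with KA, 267 with KA+NAP and 505 with NAP, at −0.86 and −0.89. The other read 270, 431, 379 and 370, at 0.66 and 0.03. The direction for Plxna4 in KA minus PBS therefore rests on the choice of probe set. Plxnb2 read 303 with PBS, 384 with KA, 578 with KA+NAP and 344 with NAP, so both KA arrays were above the others. Plxna1 ranged from 163 to 221 and Plxna3 from 87 to 122, each with both KA arrays below the others, and Plxna2 ranged from 260 to 333.

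Both neuropilins passed the filter and, by the brightest probe set, were lower by less than 1.5-fold in both KA differences. Nrp1, a co-receptor for class 3 semaphorins and for VEGF, read 2003 with PBS, 1435 with KA, 1395 with KA+NAP and 1901 with NAP, at −0.48 and −0.44. The second Nrp1 probe set, also past the filter, gave −0.89 and −0.64, each more than 1.5-fold lower. Nrp2 ranged from 470 to 695 with both KA arrays below the others.

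RefSeq promoter sequences (GRCr8 build) were at hand for 43 of the 57 genes. Those of Plxnb1, Plxnc1 and Epha5 are shown because these genes were at least 1.5-fold lower in both KA differences, and that of Sema3g because it was high on the KA+NAP array alone. Each runs 5′ to 3′ on the gene's strand, from 250 bases before the annotated start to 50 bases after it. Capitals mark matches, on either strand, to the motifs searched: the cAMP response element TGACGTCA, the AP-1 site TGANTCA, the GC box GGGCGG, the EGR site GCGNGGGCG (which can overlap a GC box), the E-box CACGTG, the TATA box TATAAA and CCAAT.
Plxnb1, chr8:118622911-118623210, plus strand: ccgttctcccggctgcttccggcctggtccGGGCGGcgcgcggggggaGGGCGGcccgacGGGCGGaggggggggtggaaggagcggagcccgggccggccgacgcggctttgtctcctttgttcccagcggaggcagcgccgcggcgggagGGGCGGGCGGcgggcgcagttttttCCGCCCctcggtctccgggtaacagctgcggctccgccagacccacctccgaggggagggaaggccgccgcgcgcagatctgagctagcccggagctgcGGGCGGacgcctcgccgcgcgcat
Plxnc1, chr7:31430556-31430855, minus strand: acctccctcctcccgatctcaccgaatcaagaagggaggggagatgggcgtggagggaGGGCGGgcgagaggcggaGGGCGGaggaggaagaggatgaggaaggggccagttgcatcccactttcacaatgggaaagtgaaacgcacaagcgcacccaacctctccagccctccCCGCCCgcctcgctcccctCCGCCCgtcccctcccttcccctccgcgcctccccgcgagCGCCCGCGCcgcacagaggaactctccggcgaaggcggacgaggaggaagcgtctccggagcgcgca
Epha5, chr14:24007872-24008171, plus strand: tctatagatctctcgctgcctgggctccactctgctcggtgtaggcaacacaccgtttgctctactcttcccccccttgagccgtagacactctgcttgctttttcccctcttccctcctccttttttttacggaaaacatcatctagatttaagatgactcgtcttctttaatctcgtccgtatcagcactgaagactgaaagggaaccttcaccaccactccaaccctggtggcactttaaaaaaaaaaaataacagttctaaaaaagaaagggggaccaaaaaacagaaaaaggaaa
Sema3g, chr16:6419775-6420074, plus strand: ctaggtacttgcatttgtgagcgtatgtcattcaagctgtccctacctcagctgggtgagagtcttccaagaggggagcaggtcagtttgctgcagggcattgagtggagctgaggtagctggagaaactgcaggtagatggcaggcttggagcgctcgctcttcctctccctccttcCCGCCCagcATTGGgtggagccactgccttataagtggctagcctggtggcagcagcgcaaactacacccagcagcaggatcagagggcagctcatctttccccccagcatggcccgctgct

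These windows had little in common in composition. G and C made up 77.3% of the Plxnb1 window, 69.0% of Plxnc1, 44.7% of Epha5 and 58.0% of Sema3g, against a median of 61.0% over the 43 guidance genes and 51.7% over all 33469 promoters. The Plxnb1 window held 7 GC boxes and that of Plxnc1 held 4, with 1 EGR match in Plxnc1, while Epha5 matched none of the motifs. At least 1 GC box was present in 25 of the 43 guidance promoters and in 33.1% of all promoters. The EGR site was present in 6 of 43 and in 4.98% of all. None of the 43 held TATAAA, which 14.2% of all did, 1 held the cAMP response element (1.83% of all), and 1 held the AP-1 site (7.33% of all). The E-box was found in 4 of 43 (6.42% of all) and CCAAT in 16 of 43 (37.5% of all). The guidance set held 1 window per gene, while the set of all promoters was not reduced in that way or limited to genes on the array. A match describes letters and is not a binding site.

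Past the filter were 5 of 8 EphA and 3 of 4 EphB receptors, and the order of their medians turned between the KA differences. By the brightest probe set, all 5 EphA receptors lay below 0 in KA+NAP minus NAP, with a median of −0.75. Each was at least 1.5-fold lower, a size that 9.38% of all genes reached. Further probe sets past the filter varied in that difference. The second of Epha3 gave 0.13 and that of Epha7 −1.04, and those of Epha4 ran from −1.28 to −0.45. In KA minus PBS the EphA median was −0.12 and 2 of 5 were at least 1.5-fold lower (Epha4 and Epha5), against 9.56% of all genes. The 3 EphB receptors had medians of −0.40 in KA minus PBS and 0.04 in KA+NAP minus NAP. The difference between the classes was not tested.

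Epha4, which binds ephrins of both classes, read 4818 with PBS, 3096 with KA, 2769 with KA+NAP and 4660 with NAP. The 2 arrays without KA were close and the 2 with KA were both lower, at differences of −0.64 and −0.75. Of the other 3 Epha4 probe sets past the filter, 2 gave −0.84 and −0.89 in KA minus PBS and −0.89 and −1.28 in KA+NAP minus NAP. The fourth, at intensities of 120 to 173, gave 0.26 and −0.45.

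Epha5, a receptor of A-class ephrins, read 471 with PBS, 232 with KA, 276 with KA+NAP and 466 with NAP. NAP minus PBS was −0.02, while the KA differences were −0.99 and −0.73. Epha7 separated the KA arrays instead. It read 210 with PBS, 193 with KA, 106 with KA+NAP and 269 with NAP, so it was low on the KA+NAP array only, at −1.27 from NAP and −0.81 from KA. The second Epha7 probe set read 75, 100, 46 and 105 in the same order and gave −1.04 and −0.97. Epha6 showed the same order of arrays at 266, 259, 170 and 314. Epha3 ranged from 131 to 203, and its second probe set was on the other side of 0 in every one of the 4 differences.

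Ephb3, a receptor of B-class ephrins, read 183 with PBS, 74 with KA, 107 with KA+NAP and 104 with NAP. It was high on the PBS array alone, with −1.20 in KA minus PBS, 0.04 in KA+NAP minus NAP and −0.76 in NAP minus PBS. Against the NAP array, its KA value was −0.44. The summed CA1 markers were likewise highest with PBS and lowest with KA, and their part in the Ephb3 value was not tested. Ephb6, whose product lacks kinase activity, read 254 with PBS, 219 with KA, 267 with KA+NAP and 210 with NAP, at −0.21 and 0.33 in the KA differences. Ephb1 ranged from 115 with KA to 174 with NAP.

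Of 5 ephrins on the array, 2 passed the filter. Efnb3 encodes ephrin-B3, a transmembrane ligand of EphA4 and EphB receptors that acts as a barrier to axons at the midline. It read 820 with PBS, 312 with KA, 280 with KA+NAP and 867 with NAP. The arrays with and without KA were far apart and each pair was close, at −1.37 and −1.60 for KA and −0.15 and 0.08 for the peptide. Among the 34 genes past the filter it had the lowest value in both KA differences. The gene has 1 probe set on the array, so no second reading was at hand. Summed CA3, pan-neuronal and astrocyte markers were also lower on both KA arrays, and their part in the Efnb3 value was not tested.

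Efna5 encodes ephrin-A5, a membrane-anchored ligand of EphA receptors. It read 47 with PBS, 144 with KA, 44 with KA+NAP and 63 with NAP, so the KA array alone was high. The differences were 1.43 in KA minus PBS, −1.51 in KA+NAP minus KA and −0.43 in KA+NAP minus NAP. In KA+NAP minus KA it was the only member at least 2-fold lower, as were 0.601% of all genes. Efna5 had the lowest mean of the members past the filter, 74.5, and passed it through the KA array. Just below the filter were Sema6c at a mean of 59.5, Slit1 at 59.25 and Sema4b at 57.75. The second Efna5 probe set was at 1 or 0 on every array.

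**Figure D3:**
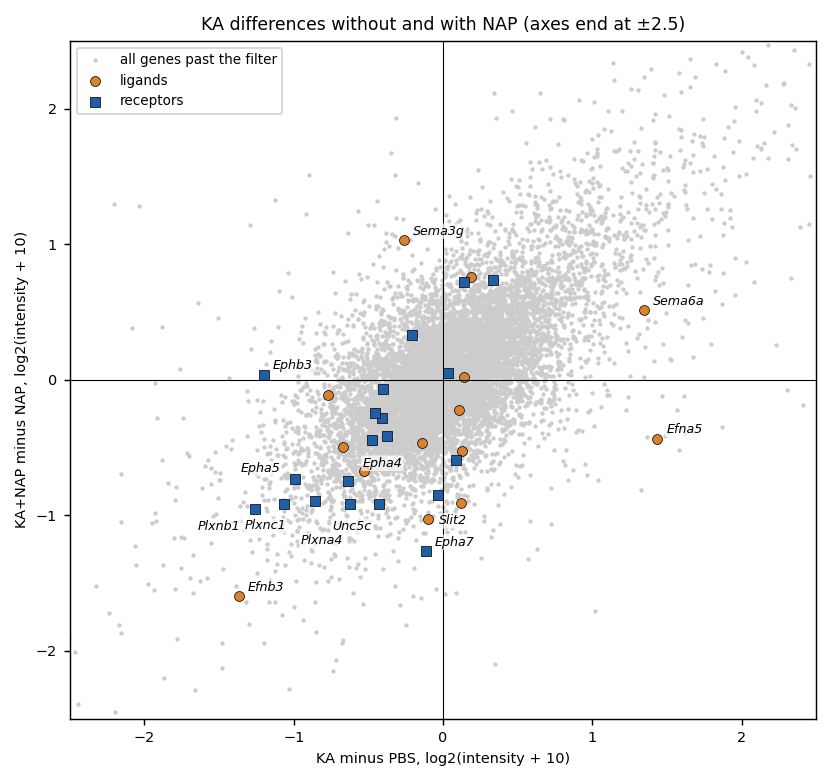
KA minus PBS (x axis) against KA+NAP minus NAP (y axis) in log2(intensity + 10), with the 14 ligands (circles) and 20 receptors (squares) past the filter over all 9489 genes (grey; axes end at 2.5, and some grey points lie outside). The 13 named members include Efnb3 at the lower left, Sema3g above 0 on the y axis only and Efna5 to the right on the x axis only.

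Across the 34 members the KA differences, which share no array, correlated at r = 0.43, and across all 9489 genes at r = 0.70. Genes are not independent replicates, and both values are descriptions of these 4 arrays. The members farthest from equal KA differences were Efna5, where the KA difference with NAP less that without NAP was −1.87, Sema3g at 1.29, Ephb3 at 1.24, Epha7 at −1.15 and Sema5a at −1.03. No member was at least 1.5-fold apart in opposite directions in the 2 KA differences, a pattern shown by 0.306% of all genes.

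Slits are secreted cues that act through Robo receptors, and 2 of 3 passed the filter. Slit2 read 523 with PBS, 487 with KA, 298 with KA+NAP and 618 with NAP, low on the KA+NAP array alone, at −1.03 from NAP and −0.69 from KA. The second Slit2 probe set read 496, 352, 453 and 480, with −0.08 in KA+NAP minus NAP, so the low KA+NAP value was seen with 1 of 2 probe sets. Slit3 ranged from 113 to 142. Robo2, a Slit receptor, read 1066 with PBS, 789 with KA, 598 with KA+NAP and 1141 with NAP. Both KA arrays lay below the others, at −0.43 and −0.92, and the second Robo2 probe set gave −0.10 and −0.16.

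Netrin receptors were represented past the filter by Unc5c and Unc5b, of 5 genes in the Unc5 and Dcc family, and no netrin passed it. Unc5c read 605 with PBS, 390 with KA, 268 with KA+NAP and 516 with NAP. Both KA arrays were below the others, at −0.62 and −0.92. A second, dim Unc5c probe set read 59, 49, 33 and 48 in the same order, at −0.23 and −0.43. Unc5b had both KA arrays above the others, at 88, 98, 127 and 73 in the order PBS, KA, KA+NAP and NAP. Ntn1 (netrin-1), the brighter of 2 netrins, was dim on all arrays, at 49 with PBS, 50 with KA, 43 with KA+NAP and 38 with NAP.

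**Figure D4:**
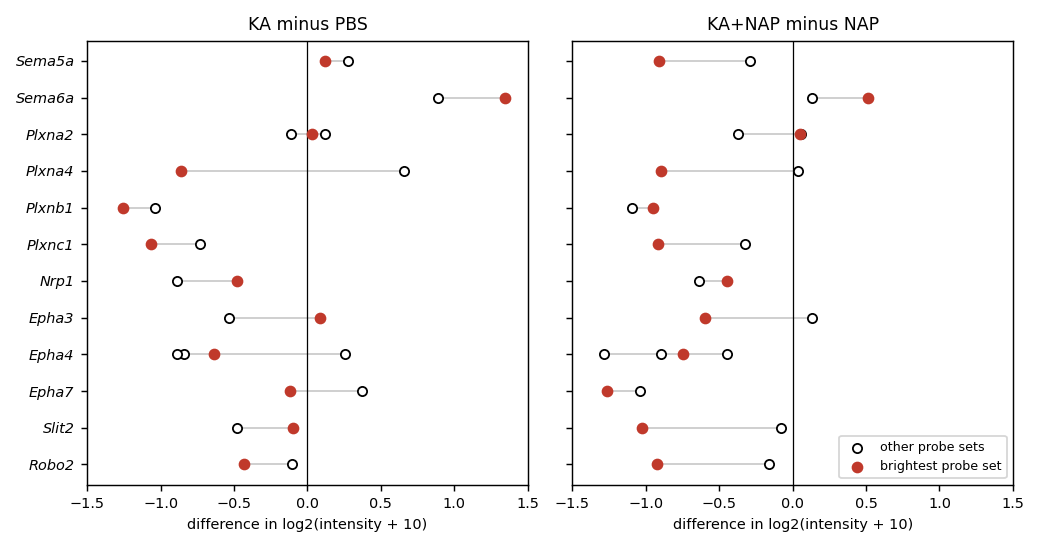
Difference in log2(intensity + 10) for each probe set past the filter of the 12 guidance genes that had several, in KA minus PBS (left) and KA+NAP minus NAP (right). Red points are the brightest probe set and open points the others. All probe sets of a gene lay on the same side of 0 for 7 of the 12 genes at left and 9 at right, and the Plxna4 points lie far apart in both panels.

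Most peptide differences of the guidance genes were under 1.5-fold, with Efna5 and Sema3g the members past 2-fold, both in KA+NAP minus KA. In NAP minus PBS the median was 0.02, against 0.02 over all genes, and 16 of 34 lay below 0, against 45.2%. At 2-fold, 0 of 34 were apart, against 1.05% of all genes higher and 0.242% lower. The members at least 1.5-fold apart there were Sema6a at 0.68 and Sema6d at 0.59, against 3.96% of all genes higher, and Ephb3 at −0.76, against 1.69% lower. In KA+NAP minus KA the median was −0.08, against 0.03 over all genes, and 20 of 34 lay below 0, against 45.4%. Past 1.5-fold were 1 of 34 above, Sema3g, against 6.53% of all genes, and 4 of 34 below, Efna5, Epha7, Sema5a and Slit2, against 2.87%. By the brightest probe set, all 4 of these lower genes read higher on the NAP array than on the PBS array, by 0.24 to 0.36. The second Slit2 probe set went the other way, at 0.36 in KA+NAP minus KA and −0.05 in NAP minus PBS. Those of Epha7 and Sema5a kept the side of the brightest in both. Efna5 passed the filter through the KA array, so its low value in KA+NAP minus KA is not independent of the filter. Summed over 5 genes, of which 4 passed the filter, microglia and macrophage markers were 739 with PBS, 689 with KA, 1444 with KA+NAP and 982 with NAP, and meningeal and fibroblast markers, over 7 genes of which 5 passed, were 979, 787, 1144 and 1892. In both peptide differences, all 4 microglia and macrophage genes past the filter lay above 0. So did 4 of the 5 meningeal and fibroblast genes, while Lum was at −0.08 in KA+NAP minus KA and −0.17 in NAP minus PBS. Of 3 measured choroid plexus genes 1 passed the filter, Ttr. It read 354 with PBS, 453 with KA, 76 with KA+NAP and 359 with NAP, low on the KA+NAP array alone. The part of these markers in the peptide differences was not tested.

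**Figure D5:**
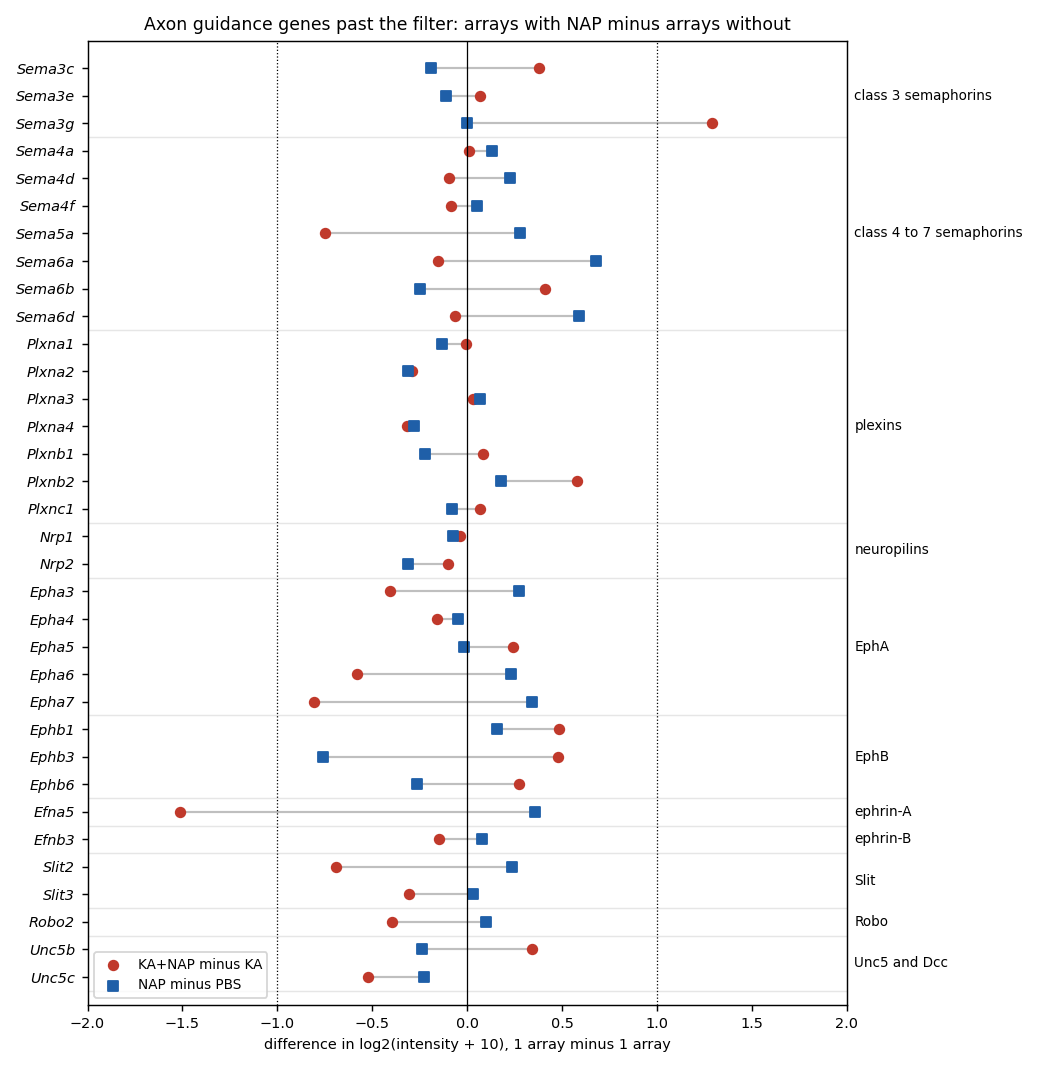
KA+NAP minus KA (red circles) and NAP minus PBS (blue squares) for the 34 guidance genes past the filter, by family, in log2(intensity + 10), each point 1 array minus 1 array, with dotted lines at 2-fold. Sema3g lies past the right line and Efna5 past the left line with the circle only, and no square passes either line.

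The 23 dim genes were Sema3a, Sema3b, Sema3d, Sema3f, Sema4b, Sema4g, Sema6c, Plxnd1, Epha2, Epha8, Epha10, Ephb4, Efna1, Efna4, Efnb1, Slit1, Robo1, Robo3, Ntn1, Ntn5, Unc5a, Unc5cl and Dcc. 20 of them stayed at or under 62.75 on every array, the exceptions being Sema6c, Slit1 and Sema4b, and 9 read 10 or less on at least 1 array. Large log2 differences here can rest on few units of intensity. They ran from −1.58 (Dcc, at 29 with PBS and 3 with KA) to 1.58 (Epha2, at 2 and 26) in KA minus PBS, and from −1.51 (Robo3) to 0.98 (Plxnd1) in KA+NAP minus NAP. Robo3, of the Slit receptor family, read 31 with PBS, 6 with KA, 3 with KA+NAP and 27 with NAP, and was also at −1.36 in KA minus PBS. Sema6c read 98 with PBS, 36 with KA, 28 with KA+NAP and 76 with NAP, with both KA arrays below the others. Slit1 read 78, 29, 66 and 64 in the same order, low on the KA array alone. Plxnd1, the receptor of Sema3e and a gene of blood vessels, read 16, 18, 53 and 22, highest on the KA+NAP array.

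Of 28 further guidance cues and co-receptors, 27 had a value and 25 passed the filter, with medians of −0.22 in KA minus PBS and −0.44 in KA+NAP minus NAP. 2 of the 25 were at least 2-fold lower in each, against 2.39% and 2.41% of all genes. The chemokine gene Cxcl12 read 1711 with PBS, 739 with KA, 680 with KA+NAP and 2644 with NAP, at −1.20 and −1.94. Ntng1, a membrane-anchored relative of the netrins, read 356, 152, 174 and 351 in that order, at −1.18 and −0.97, so the arrays with and without KA did not overlap. Omg, a myelin-associated inhibitor of axon growth, was at 1824 with NAP and 823 with KA+NAP, at −1.14, and at −0.35 in KA minus PBS. None of the 25 was at least 2-fold higher in any of the 4 differences.

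Of 44 cytoplasmic effectors of guidance signals, 40 had a value and 35 passed the filter, and their medians were 0.04 in both KA differences. At 2-fold, 1 of the 35 was higher in KA minus PBS, against 4.91% of all genes, 2 in KA+NAP minus NAP, against 5.66%, and 1 in KA+NAP minus KA, against 1.52%. None was at least 2-fold lower in any of the 4 differences. Dpysl3, a collapsin response mediator that acts in semaphorin signalling, read 46 with PBS, 194 with KA, 139 with KA+NAP and 91 with NAP, at 1.87 and 0.56. Vav2, an exchange factor that acts downstream of Eph receptors, read 55, 64, 153 and 67 in that order, high on the KA+NAP array alone at 1.08 from NAP and 1.14 from KA.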

How the data were processed

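Per the labels, 500 ng of total RNA per sample was amplified in 2 cycles and labelled with biotin for Affymetrix arrays, a procedure that favours 3′ ends. Per the submitters' processing notes, intensity values were computed with MAS5, and the deposited intensities are linear whole numbers. The MAS5 version is not given in the sources used here. No detection calls were at hand to judge signal against background, and the number of arrays limits the precision.

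Of 31042 probe sets that are not controls, 20826 had 1 symbol in the platform annotation, 436 several and 9780 none. Symbols were updated through gene identifiers, of which 20758 matched the GRCr8 gene table, and no guidance gene changed its name. No genome build is named for the arrays. Differences used log2(intensity + 10), where 20.7% of values are at or below 10, in Python 3.11.15 with numpy 2.4.6 and pandas 2.3.3, and the computation was tested on simulated data. Genes given with all 4 intensities were those at least 2-fold apart in any difference, those at least 1.5-fold apart the same way in both KA differences, and the brightest of each family. Of the further guidance genes, those at least 2-fold apart in any difference were named, except for 1 that is not reported here. Sema3c, Sema4f, Sema5a, Epha6, Plxnb2, Unc5b, Sema6c, Slit1, Plxnd1, Robo3, Dcc and Epha2 fall outside this rule in part or whole and were singled out after their values were seen. The members and gene lists were chosen with earlier results of these data known. The grouping by ligands and receptors, and the count of genes lower in both KA differences as a result to be recomputed, were chosen after seeing the data. The alternatives tried were pseudocounts of 1 and 50, no filter, a filter at the 75th percentile (286), the median of probe sets, quantile normalization, centring, updated symbols and the other array without KA. The main values already used updated symbols, so that setting repeated them unchanged.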

Additional observations from a re-analysis of the deposited data

How the results depend on the processing

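The median KA differences of the guidance genes stayed below 0 under every alternative, between −0.47 and −0.24 in KA minus PBS and between −0.74 and −0.39 in KA+NAP minus NAP. The count of 7 genes at least 1.5-fold lower in both KA differences lay between 5 (each KA array set against the other array without KA) and 10 (no filter, 57 genes). Counts of genes at 2-fold are small and moved more. With a pseudocount of 50, 2 genes were 2-fold lower in KA minus PBS and 0 higher in KA+NAP minus NAP; the latter was also 0 with quantile normalization. Without a filter, KA minus PBS had 4 higher and 9 lower, KA+NAP minus NAP 6 lower, KA+NAP minus KA 2 higher and NAP minus PBS 2 higher. With the filter at the 75th percentile 16 genes were left, with 0 higher and 2 lower in KA minus PBS, 0 higher in KA+NAP minus NAP, and 0 higher and 0 lower in KA+NAP minus KA. Against the other array without KA, KA had 1 higher and 2 lower, and KA+NAP 2 higher and 5 lower. Among the 13 genes named by fold, 418 differences were recomputed, but many of them could not move. Under no filter, the filter at the 75th percentile and updated symbols, each gene kept its main value. Centring shifted all genes by the same small amount in each difference. The median of probe sets could not move a gene with 1 probe set past the filter. With these included, 413 of the 418 moved by less than 1.5-fold, and none that was at least 1.5-fold changed sign. 8 smaller ones did. With the median of probe sets these were Epha7 in KA minus PBS (0.13), Plxnb1 and Sema6a in KA+NAP minus KA (−0.03 and 0.01), and Plxna4 and Plxnc1 in NAP minus PBS (0.08 and 0.20). With quantile normalization they were Ephb3 in KA+NAP minus NAP (−0.04) and Plxnc1 in KA+NAP minus KA (−0.01), and the eighth was Ephb3 in KA+NAP minus NAP against the other array without KA (−0.72). The 5 that moved were Plxna4 in KA minus PBS with the median of probe sets (−0.10), and, against the other array without KA, both KA differences of Ephb3 (−0.44 and −0.72) and Sema6a (0.66 and 1.19). The filter on mean intensity stands in for signal over background, which limits Efna5 and the dim genes most. No paired analysis was possible because each group had 1 array.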
